A study of Mus musculus with 6 samples.

Results

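To see how the fat cell genes of gastrocnemius (GA) muscle behaved after the loss of the nerve, 8 genes that mark adipocytes and the carbonic anhydrase Car3 were examined on the bead arrays of 3 denervated and 3 control muscles. The members were the genes Adipoq, Lep, Retn, Cfd, Fabp4, Lpl, Pparg, Cidec and Car3, chosen by name, with every probe that the platform annotation gives to them. These were 10 probes for 8 of the 9 genes, out of 25697 probes for 16593 named genes, and Cfd had no probe in the annotation used here. The muscles came from adult male mice in which the left sciatic nerve had been interrupted 14 days earlier by excision of a 2 mm piece, and the innervated GA muscle of the right leg was the control, so that every animal carried the lesion. The labels give neither the strain nor the number of mice, and p-values therefore refer only to the variation among these samples, which may be technical. The 6 arrays shared 1 chip, on which each group had its own positions, and position and group cannot be told apart.

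Adipocytes lie between the fibers and along the vessels of skeletal muscle, and a dissected muscle can carry more or less of this fat. They store triglyceride in a large lipid droplet and secrete hormones. The nuclear receptor Pparg is the master regulator of their differentiation. Adipoq (adiponectin), Lep (leptin), Retn (resistin) and Cfd (adipsin, a complement protease) are secreted by them, Cidec enlarges the lipid droplet, Fabp4 carries fatty acids in the cytosol and Lpl (lipoprotein lipase) releases fatty acids from circulating lipoproteins. The fibers of muscle also make Lpl, and macrophages and endothelial cells can express Fabp4. Car3 is a cytosolic carbonic anhydrase of low activity that is abundant in adipocytes, in the liver and in slow muscle fibers. In a whole muscle, fewer cells of a type and less RNA per cell cannot be told apart.

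Values are signal intensities averaged over the beads of a probe, and log2 intensities after background correction and quantile normalization. A probe was tested when it was above background (detection p under 0.05) on at least 3 arrays, which held for 12546 probes and 8740 genes. The number of probes above background on an array was 11551 to 12785, and the denervated arrays were brighter before normalization (95th percentile of the signal 4000 to 4048, against 2896 to 3022 on the control arrays).

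Of the 9 members 6 could be tested. Car3 rose after denervation, Lpl and Lep fell, and Adipoq, Cidec and Pparg passed the threshold in neither direction. These are 3 calls in 6 genes, beside 43.8% of all genes called on these arrays (22.2% higher and 21.6% lower), and the median log2 fold change of the 6 members was -0.80 beside -0.0033 over all genes. The 3 members called were also those whose denervated and control values did not overlap, which was the case in 55% of all genes.

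**Figure D1:**
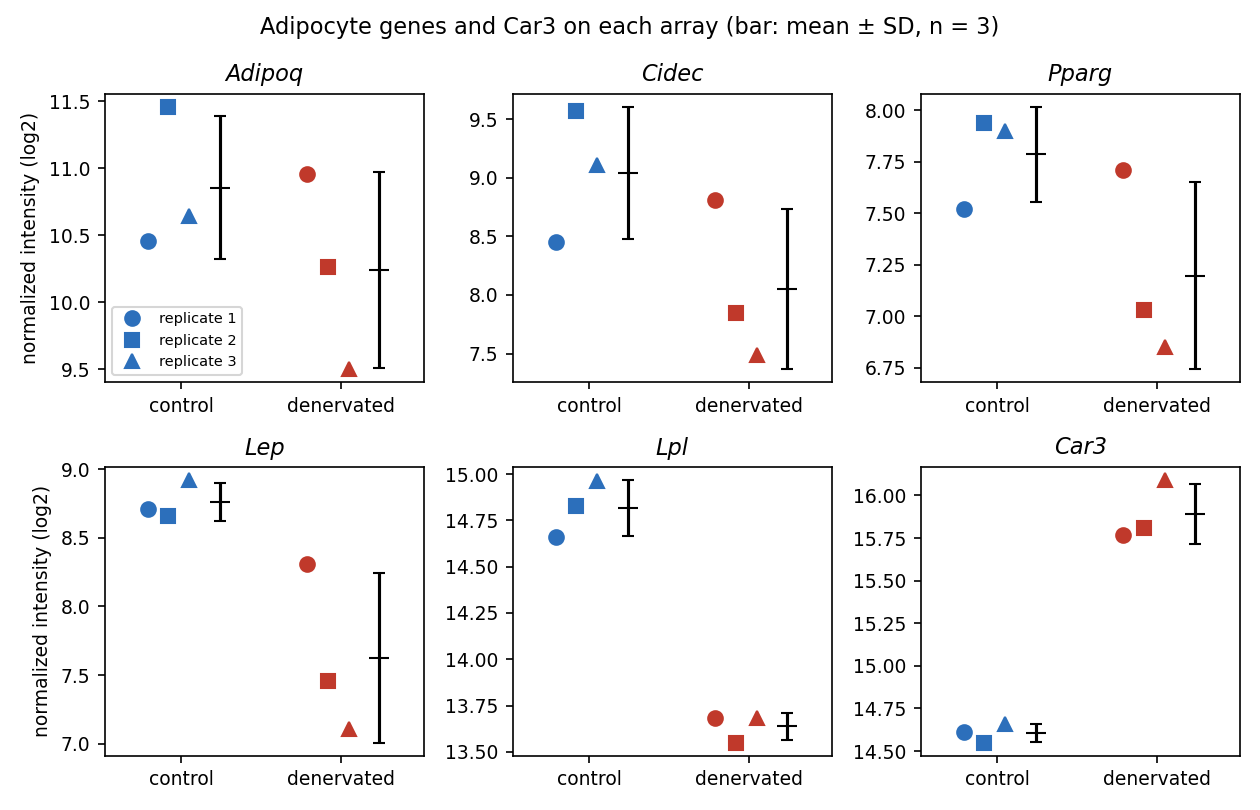
Normalized log2 intensity of the 6 tested members on each array, with symbols for the replicates and the mean ± SD beside each group (n = 3). Lpl and Car3 separate the groups by more than their spread, whereas the denervated values of Adipoq, Cidec and Pparg run from within the control range to below it; the vertical scale differs between panels.

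Adiponectin, the most selective of these markers, was above background on every array. Its signal was 2480, 1533 and 974 in the denervated muscles and 1270, 2440 and 1466 in the control muscles. The groups overlapped. After normalization the values were 10.96, 10.26 and 9.50 in denervated and 10.46, 11.46 and 10.64 in control muscle on the log2 scale, with control replicate 2 the highest and denervated replicate 3 the lowest. The standard error over beads was 3.67% to 6.42% of the signal, so the arrays differed by more than the error over beads within an array. That error does not cover differences in sample preparation or between arrays. On the normalized log2 scale the mean was 10.24 ± 0.73 in denervated and 10.85 ± 0.53 in control muscle (SD, n = 3). The log2 fold change was -0.61 ± 0.37 (SE; 95% interval -1.45 to 0.23; adjusted p = 0.215), so that the interval held 0 as well as a fall larger than 1 on this scale.

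Within each group, Cidec had the order of arrays that Adipoq had. Its signal was 654, 375 and 338 in denervated and 398, 726 and 572 in control muscle, and denervated replicate 1 lay inside the control range. The log2 fold change was -0.99 ± 0.36 (adjusted p = 0.0538). Pparg was read by 3 probes, of which 1 was tested. That probe gave a signal of 365, 258 and 261 in denervated and 264, 306 and 312 in control muscle, and a normalized log2 fold change of -0.59 ± 0.22 (adjusted p = 0.0621). Both genes stood close to the threshold, and a single array decided on which side they fell. Without denervated replicate 1 the log2 fold change of Cidec was -1.37 (adjusted p = 0.00989) and that of Pparg -0.85 (adjusted p = 0.00686), and without control replicate 1 they were -1.29 (adjusted p = 0.0216) and -0.72 (adjusted p = 0.0453). Adipoq was not called without denervated replicate 1 either, at -0.98 (adjusted p = 0.0511). The other Pparg probes were above background on 0 and 1 of the 6 arrays and do not bear on the difference.

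Leptin, the hormone that reports the size of the fat stores, fell. Its normalized log2 intensity was 8.31, 7.46 and 7.11 in denervated and 8.71, 8.66 and 8.92 in control muscle, so that all denervated values lay below all control values. The log2 fold change was -1.14 ± 0.27 (2.20-fold lower; adjusted p = 0.00876), and it ran from -1.47 without denervated replicate 1 to -0.88 without denervated replicate 3, with the call kept in each of the 6 fits that left out 1 array. Before normalization denervated replicate 1, at a signal of 494, lay within the control range of 436 to 515. The groups were apart in the authors' normalized values as well, at 260 to 448 against 542 to 627. An equal-variance test per probe without moderation gave an adjusted p of 0.0848.

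Leptin was also set against adiponectin on the same array, where only the variation of the difference from array to array can be read. The log2 intensity of Lep minus that of Adipoq was -2.66, -2.80 and -2.39 in denervated and -1.75, -2.80 and -1.73 in control muscle. Control replicate 2, the control array with the most adiponectin signal, thus stood with the denervated arrays, and the other control arrays stood above them. For Cidec the same difference was -2.15, -2.42 and -2.01 in denervated and -2.01, -1.89 and -1.54 in control muscle. For Pparg it was -3.25, -3.24 and -2.66 in denervated and -2.94, -3.52 and -2.75 in control muscle, and the groups overlapped.

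The stretches of 250 bases before the annotated transcription start of Adipoq, Lep and Cidec are shown as examples of the tested fat cell genes. They come from the RefSeq promoter table of mouse assembly GRCm38.p6, which had entries for 6 of the 9 members. Adipoq lies at chr16:23146286-23146535 on the plus strand, Lep at chr6:29059971-29060220 on the plus strand and Cidec at chr6:113435761-113436010 on the minus strand (the first of its 2 annotated starts). Capitals mark matches on either strand to any of 5 motifs. The TATA box was searched as TATAAA. The CCAAT box was searched by the letters of its name. The palindrome bound by C/EBP factors was searched as TTGCGCAA. The unit bound by nuclear receptors was searched as AGGTCA, and the direct repeat bound by Pparg with its partner, which contains that unit, as a pair of such units with 1 base of any kind between them.
Adipoq: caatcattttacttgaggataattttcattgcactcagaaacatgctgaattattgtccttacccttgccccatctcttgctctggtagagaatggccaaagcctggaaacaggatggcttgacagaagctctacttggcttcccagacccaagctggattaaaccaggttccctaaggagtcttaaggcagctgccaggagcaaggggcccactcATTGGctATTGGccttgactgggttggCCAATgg
Lep: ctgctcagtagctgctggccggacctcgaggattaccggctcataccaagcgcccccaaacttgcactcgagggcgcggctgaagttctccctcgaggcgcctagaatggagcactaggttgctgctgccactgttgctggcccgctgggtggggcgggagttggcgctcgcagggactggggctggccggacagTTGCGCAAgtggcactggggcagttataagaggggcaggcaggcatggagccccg
Cidec: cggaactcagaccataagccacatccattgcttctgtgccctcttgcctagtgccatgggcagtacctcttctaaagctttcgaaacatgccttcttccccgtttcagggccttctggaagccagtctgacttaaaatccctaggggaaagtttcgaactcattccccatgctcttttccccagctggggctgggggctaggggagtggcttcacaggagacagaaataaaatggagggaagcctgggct
The Lep stretch held TTGCGCAA from 55 to 48 bases before the start, a sequence found in 54 of 32851 promoter stretches of this length (0.164%). The Adipoq stretch held the CCAAT box in 3 places, from 34 to 30 and from 27 to 23 bases before the start on the opposite strand and from 7 to 3 bases before it, and CCAAT occurred in 33.8% of all stretches. The other motifs, found in 12.4% (TATAAA), 14.0% (AGGTCA) and 0.0335% (the direct repeat) of all stretches, had no match in the 3 sequences. Pparg, which is not printed, has 3 annotated starts, with AGGTCA before 2 of them, CCAAT before 2 and TATAAA before 1, and the stretches of Retn and Cfd held no match. A match describes letters only. Of the C/EBP factors listed here Cebpb was tested and rose by 1.09 ± 0.20 (adjusted p = 0.00266). The Cebpa probe was above background on 1 of 6 arrays, and Cebpd had no probe in the annotation used here. A link of these factors to the Lep stretch was not tested.

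The fat cell genes stood out by their spread within the groups pooled. For Lep this held in denervated muscle (SD 0.61) but not in control muscle (SD 0.14). The pooled within-group SD was 0.64 for Adipoq, 0.63 for Cidec, 0.45 for Lep and 0.36 for Pparg on the log2 scale, beside a median of 0.16 over all genes. Of all genes 99.5% had a lower SD than Adipoq, 99.4% than Cidec, 97.3% than Lep and 93.0% than Pparg. Lpl (0.12) and Car3 (0.13) were below the median. The probes of Lep and Pparg were dim, and no comparison with genes of like brightness was made. Without background correction the SE of the log2 fold change was 0.29 for Adipoq, 0.23 for Cidec, 0.15 for Lep and 0.12 for Pparg. With it the values were 0.37, 0.36, 0.27 and 0.22. The denervated Car3 signals reached 80.4% to 99.8% of the array maximum, and a signal so close to the ceiling can understate its spread. Adiponectin differed 2.76-fold between the highest and the lowest denervated muscle and 1.996-fold between the control muscles, and Cidec 2.51-fold and 2.16-fold.

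These genes varied together in the normalized values. In denervated muscle replicate 1 was the highest and replicate 3 the lowest for Adipoq, Lep, Cidec and Pparg alike, and in control muscle replicate 2 was the highest for Adipoq, Cidec and Pparg but not for Lep. In the raw signal of Pparg denervated replicate 2 was the lowest and control replicate 3 the highest, by small margins. With the group means removed, the deviations of Adipoq over the 6 arrays correlated with those of Cidec at 0.94, of Pparg at 0.87 and of Lep at 0.70, with those of Lpl at 0.13 and with those of Car3 at -0.85 (Pearson's r, a description over 6 arrays that share 1 chip). Among the 29 tested genes of the lipid droplet and of lipid synthesis, 8 followed Adipoq at over 0.8 (27.6%, beside 7.45% of all genes), with a median of 0.52 beside 0.04. They included Scd1 (0.91), a desaturase abundant in fat, Aqp7, the glycerol channel of adipocytes (1.0), Acaca, which makes malonyl-CoA for fatty acid synthesis (0.83), and Thrsp, a lipogenic regulator (0.81). Others of the 29 genes ran the opposite way, among them the glucose transporter Slc2a4 (-0.96), the malic enzyme Me1 (-0.96), the droplet protein Fitm2 (-0.68) and the acyltransferase Gpam (-0.61). The order of the 3 denervated arrays was that of Adipoq in 14 of these 29 genes (48.3%) and in 20.6% of all genes. This pattern was chosen for description after the values of the members were seen.

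**Figure D2:**
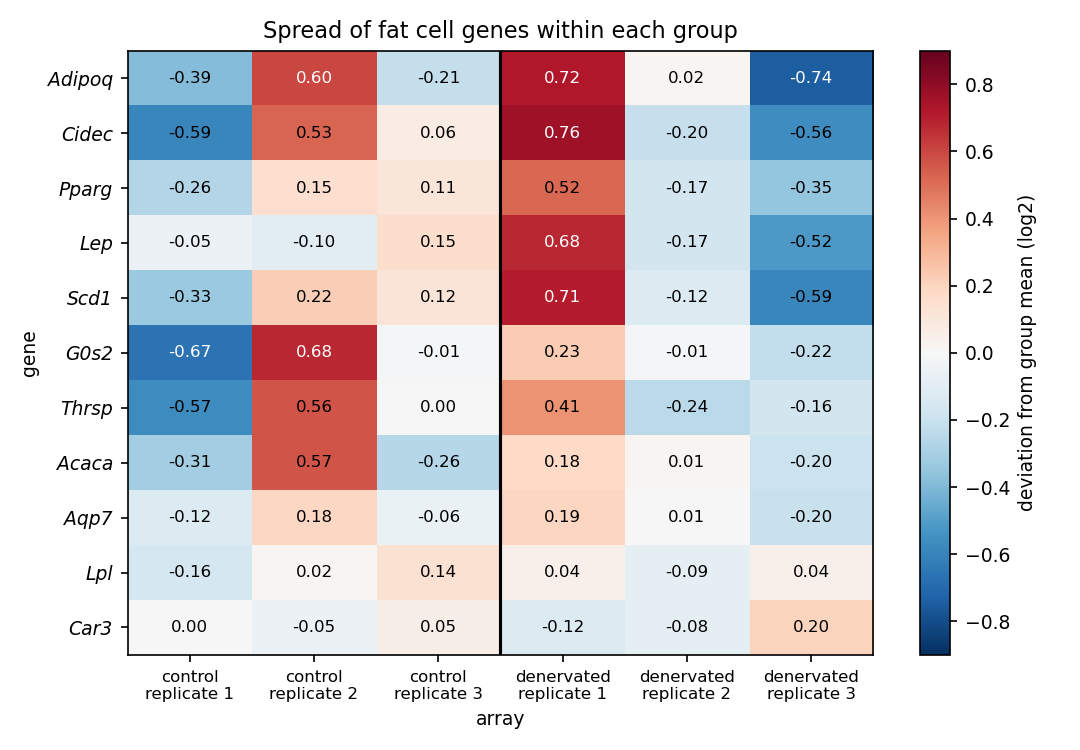
Deviation of each gene from the mean of its group on the log2 scale, for the 6 arrays (columns) and for 6 members and 5 genes of lipid storage (rows), with the value printed in each cell. These 5 genes all followed Adipoq (Pearson's r of 0.78 or more with the group means removed), and lipid genes that ran the opposite way are not shown. Among the denervated arrays Adipoq, Cidec, Pparg, Lep and Scd1 are highest in replicate 1 and lowest in replicate 3, while Lpl and Car3 deviate by at most 0.20.

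By likeness over the 6 arrays without removal of the group means, the genes closest to Adipoq were Fah, Ifi27l2a, Susd2, Cnp and Tcaf2 (Pearson's r 0.9784 to 0.9909). Those closest to Car3 were Stk40, Zxdc, Stc2, Zfyve16 and Pde8a (0.9978 to 0.9992), whose log2 fold changes were 0.70 to 1.42. These values describe 6 arrays that share the difference between the groups.

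Retn and Fabp4 gave no signal above background. The Retn probe read 102 to 135 on the 6 arrays with detection p of 0.221 to 0.941, and the Fabp4 probe 117 to 148 with detection p of 0.294 to 0.608. Fabp4 is among the most abundant transcripts of adipocytes, yet its probe was at background on the arrays on which Adipoq was clearly detected. The same held for Plin1, the main coat protein of the adipocyte droplet (117 to 150), and for the gluconeogenic and glyceroneogenic enzyme Pck1 (124 to 153), each above background on 0 of 6 arrays. The Cd36 probe, for a fatty acid receptor of muscle, fat and endothelium, was also above background on 0 arrays (114 to 151). How well these probes hybridize was not tested. Among the markers of brown fat cells 3 of 7 genes could be tested. The Ucp1 probe, for the uncoupling protein that defines brown fat, was above background on 1 array, the brown fat-linked factor Zic1 differed by 0.06 (adjusted p = 0.869), and Cox8b, a subunit of cytochrome c oxidase that muscle also uses, fell by 0.89 (adjusted p = 0.000592). Cidea, a droplet protein abundant in brown fat, differed by 0.53 (adjusted p = 0.189, or 0.00123 without control replicate 2).

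Lpl, in contrast to the other markers, was uniform within each group and clearly lower after denervation. Its signal was 15276, 13632 and 15000 in denervated and 23083, 25515 and 30183 in control muscle, with no overlap. The log2 fold change was -1.18 ± 0.12 (2.26-fold lower; adjusted p = 0.000114), and it stayed between -1.25 and -1.10 with 1 array left out. Of the proteins that mature, bind or inhibit the lipase and of the receptors for its lipids, 7 of 12 could be tested. Of these 0 rose and 1 fell, a smaller share than the 43.8% of all genes called. Gpihbp1, which carries Lpl across the capillary endothelium, fell by 0.54 (adjusted p = 0.0132). Of 9 tested endothelial markers 7 also fell (median -0.51), beside 21.6% of all genes. The summed linear level of these markers was 11620 to 12490 in denervated and 15670 to 18190 in control muscle, and their part in the values of Lpl and Gpihbp1 was not tested. The endothelial receptor Kdr was above background on 0 arrays. Of the 7 markers called, Egfl7 had other tested probes at 0.09 (adjusted p = 0.77) and -0.44 (adjusted p = 0.0996). Pecam1 had another at -0.43 (adjusted p = 0.0281). With the mean of all tested probes of a gene 6 endothelial markers fell. With each array scaled only by its median, Gpihbp1 (adjusted p = 0.172) and 0 of the 9 endothelial markers were called, and with 1 array left out the number of endothelial markers called was between 2 (without control replicate 2) and 6 (without control replicate 1). It was 4 without denervated replicate 1 or 2, 3 without denervated replicate 3 and 5 without control replicate 3. Angptl4, the fasting-induced inhibitor of the lipase, read 9.90, 8.82 and 7.36 in denervated and 8.98, 9.05 and 6.72 in control muscle on the log2 scale. It varied so widely that its log2 fold change of 0.45 had an interval from -1.21 to 2.10 (adjusted p = 0.654).

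Car3 rose from a level that was already high. Its signal was 57381, 63005 and 70235 in denervated and 22268, 20781 and 24265 in control muscle, with no overlap and little spread. The log2 fold change was 1.28 ± 0.13 (2.43-fold; 95% interval 1.0 to 1.57; adjusted p = 8.08e-05). It ran from 1.20 to 1.38 with 1 array left out, with the call kept in each of these fits. The denervated signal came close to the ceiling of the scanner. It reached 80.4%, 88.9% and 99.8% of the highest signal on its array, where the control signal reached 29.7% to 34.7%, and in denervated replicate 3 a single probe was brighter. A signal so close to the ceiling can understate a difference, and 2 of the 3 denervated values were above 60000. The signal in denervated muscle was the highest in replicate 3, in which Adipoq was the lowest.

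Car3 differed in direction from most carbonic anhydrases. Of 15 other family members 7 could be tested, of which 5 fell and 1 rose, beside 21.6% and 22.2% of all genes. Car14, a membrane-bound form of muscle, read 8.95, 8.67 and 9.25 in denervated and 11.08, 11.02 and 10.57 in control muscle on the log2 scale and fell by 1.93 ± 0.19 (adjusted p = 7.9e-05). Car9, a membrane form that is induced by hypoxia in other tissues, was above background on 0 denervated arrays and was at least 3.05-fold lower (adjusted p = 3.22e-05), and its other tested probe gave -1.16. The cytosolic Car2 fell by 1.01 ± 0.15 (adjusted p = 0.000735), Car4, which is anchored to the surface of capillaries and fibers, by 0.63 ± 0.11 (adjusted p = 0.0025) and the inactive relative Car11 by 0.41 ± 0.11 (adjusted p = 0.0188). The call of Car11 was lost without denervated replicate 1 or control replicate 1 and with scaling by the median only, at adjusted p of up to 0.36. Car13, a cytosolic form, rose by 1.14 ± 0.25 (adjusted p = 0.00643), and the mitochondrial Car5b differed by -0.23 (adjusted p = 0.295). These were dim probes. Car13 was above background on 2 of 3 control arrays and Car5b on 2 of 3 arrays in each group. Car2 was above background on 2 of 3 denervated arrays.

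**Figure D3:**
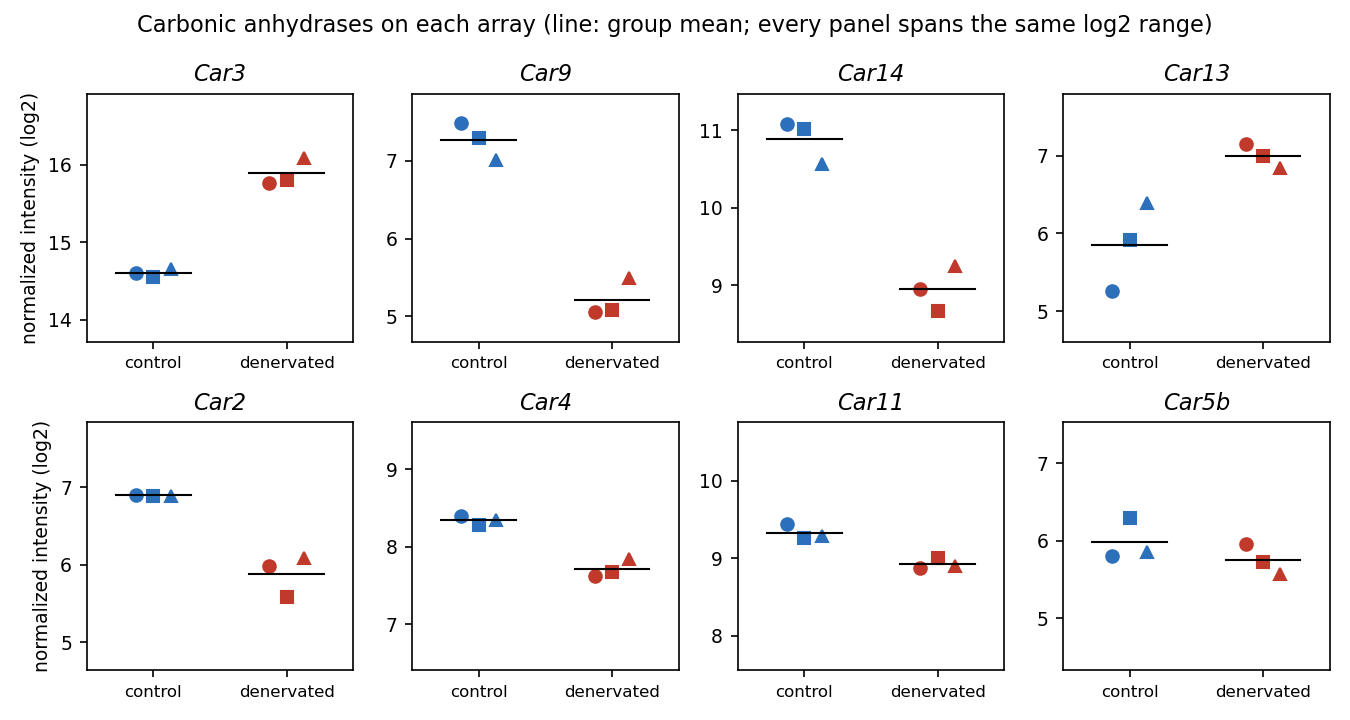
Normalized log2 intensity of Car3 and of the 7 other tested carbonic anhydrases on each array (circle, square and triangle for replicates 1, 2 and 3; lines, group means; every panel spans the same log2 range). Car3 and Car13 are higher in denervated muscle, Car9, Car14, Car2, Car4 and Car11 are lower, and Car5b overlaps between the groups.

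Slow fibers, which carry Car3, were read by 9 tested marker genes, of which 7 fell and 1 rose (median -0.82). Over all genes 21.6% fell and 22.2% rose. The summed linear level of the slow fiber markers was 62100 to 67680 in denervated and 109300 to 121800 in control muscle. The ventricular light chain Myl2 (-1.83), Myl3 (-1.62), the slow troponin Tnnc1 (-1.02) and the slow myosin Myh7 (-0.83) fell, and the slow troponin Tnnt1 rose by 0.56, a call that was lost without denervated replicate 3. The part of slow fibers in the value of Car3 was not tested. Of 10 fast fiber markers 6 lay above 60000 on every array and could not show a change. Of the others Casq1, the calsequestrin of fast fibers, fell by 1.29 (adjusted p = 7.54e-05). Myh4 (-0.28, adjusted p = 0.0977), Tnnt3 (-0.16, adjusted p = 0.256) and Myh1 (-0.03, adjusted p = 0.884) were not called. Thus 1 of the 10 fast fiber markers fell and 0 rose, beside 21.6% and 22.2% of all genes.

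Of 15 tested genes of the lipid droplet and of lipolysis 9 fell and 1 rose, with a median of -0.94. Over all genes 21.6% fell and 22.2% rose. Plin2, the droplet coat protein found in nearly all cells including muscle fibers and macrophages, read 10.09, 9.92 and 10.09 in denervated and 8.16, 7.86 and 7.88 in control muscle and rose by 2.07 ± 0.13 (4.20-fold; adjusted p = 5.8e-06). The other tested members of its family fell. The log2 fold change was -1.79 ± 0.21 for Plin5, which ties droplets to mitochondria in oxidative fibers, -1.74 ± 0.17 for Plin4, a coat protein of adipocytes and fibers, and -1.13 ± 0.15 for Plin3 (adjusted p of 0.00047 or less). G0s2, an inhibitor of the triglyceride lipase, fell by 1.47 ± 0.30 (adjusted p = 0.00413) and Abhd5, an activator of that lipase, by 1.03 ± 0.11 (adjusted p = 0.000159). The lipases themselves, Pnpla2 (0.09, adjusted p = 0.554) and Lipe (-0.24, adjusted p = 0.335), were not called. Aqp7 fell by 1.0 ± 0.14, and its other tested probes gave -0.72 and -0.79. The macrophage markers on the same arrays rose in 11 of 11 tested genes (median 1.13), beside 22.2% of all genes. Their summed linear level was 12190 to 14830 in denervated and 5256 to 5746 in control muscle. The part of macrophages in the value of Plin2 was not tested. Of their list Cd68 and Csf1r had no probe in the annotation used here and Itgam was above background on 0 arrays.

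**Figure D4:**
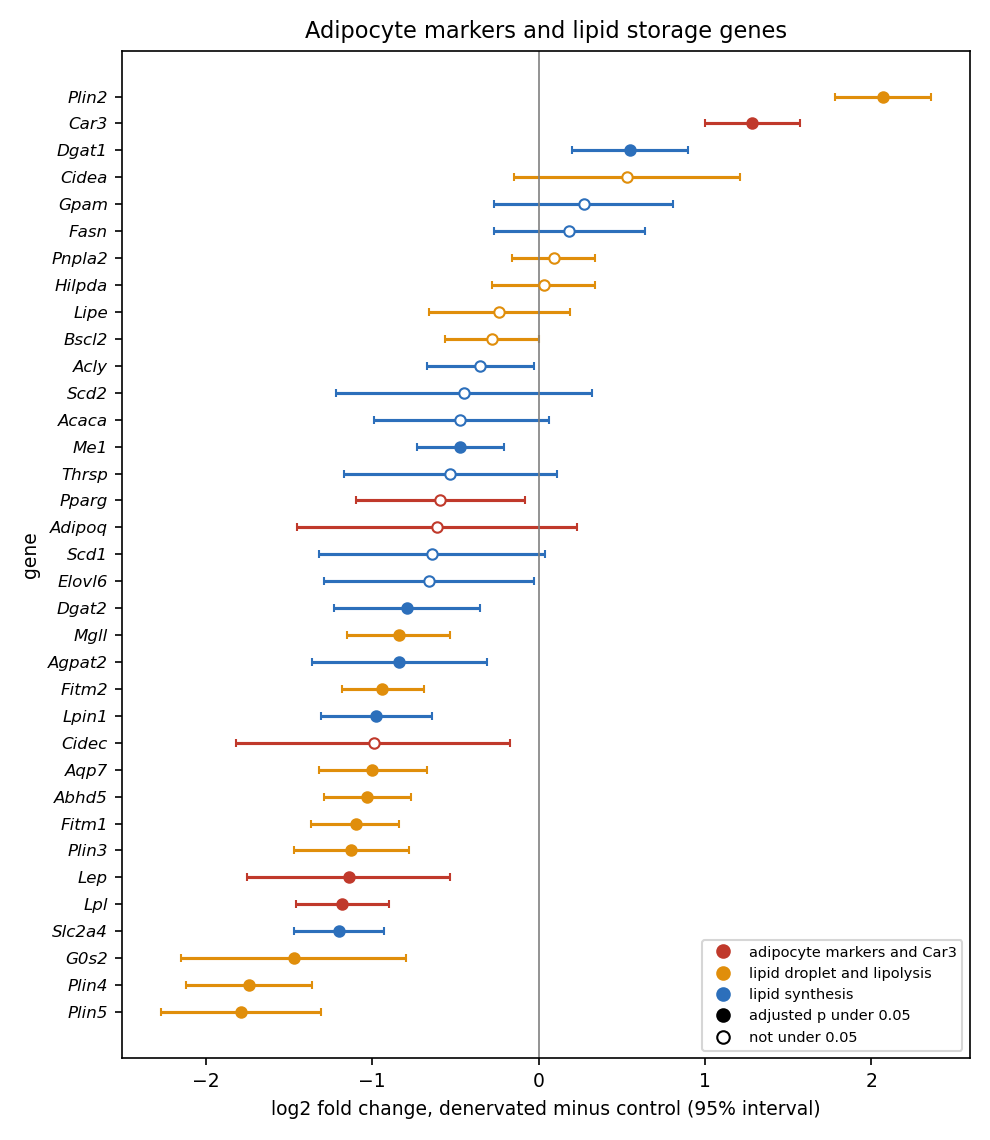
Log2 fold change (denervated minus control) with its 95% interval for the 6 tested members and the 29 tested genes of the lipid droplet, lipolysis and lipid synthesis; filled points have an adjusted p under 0.05. Plin2 (2.07) and Car3 (1.28) lie farthest to the right, and Adipoq has the widest interval among the members.

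Of 14 tested genes of fatty acid and triglyceride synthesis 5 fell and 1 rose. This share lay close to the 43.8% of all genes that were called. The insulin-responsive glucose transporter Slc2a4 fell by 1.20 ± 0.12, the phosphatidate phosphatase Lpin1 by 0.98 ± 0.15, and the acyltransferases Agpat2 and Dgat2 by 0.84 ± 0.23 and 0.79 ± 0.19 (adjusted p between 8.27e-05 and 0.0185). Slc2a4 and Lpin1 are strongly expressed by muscle fibers too. Scd1, which followed Adipoq from array to array, differed by -0.64 ± 0.30 (adjusted p = 0.118, or 0.009 without denervated replicate 1). Fatty acid synthase, Fasn, differed by 0.18 ± 0.20 (adjusted p = 0.493). Its probe was above background on only 2 of 3 arrays in each group, so its value says little about a change. The number of genes lower was 8 without control replicate 1, 7 without denervated replicate 1, and 3 with scaling by the median only. The call of Agpat2 was lost without denervated replicate 2. The gene counted as higher, Dgat1 (0.55), lost its call without either of the denervated replicates 1 and 2 and without control replicate 1. Dgat1 was above background on 2 of 3 control arrays.

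Regulators of fat cell differentiation did not move one way. Of 11 tested factors Cebpb and Klf5 (0.84 ± 0.15, adjusted p = 0.0021) rose. Srebf1, the regulator of lipid synthesis, fell by 1.11 ± 0.18 (adjusted p = 0.00118), as did the coactivator Ppargc1a (-1.30 ± 0.19, adjusted p = 0.000773). By the probe representing each gene these were the only calls, a smaller share than the 43.8% of all genes. The balance depended on the probe chosen. Other tested probes of the factors Nr1h3 (-0.45, adjusted p = 0.0359) and Zfp423 (-0.55, adjusted p = 0.00846) were lower, and those of Klf4 and Ebf2 were not called. With the mean of all tested probes of a gene 2 factors rose and 4 fell. Rxra, the partner of Pparg, differed by -0.06 (adjusted p = 0.737). Of the receptors that answer the fat cell hormones, the adiponectin receptors Adipor1 (-0.11, adjusted p = 0.434) and Adipor2 (-0.03, adjusted p = 0.85) were not called. Cdh13, a cadherin that binds adiponectin on fibers and endothelium, rose by 0.73 ± 0.13 (adjusted p = 0.00186), and its other tested probe gave 0.89. Both probes of the leptin receptor Lepr were above background on 0 arrays.

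The relatives of the members without a measured signal were partly readable. Fabp3, the fatty acid-binding protein of muscle, was the only 1 of 7 other family members that could be tested and fell by 1.94 ± 0.11 (adjusted p = 4.76e-06). Retnla, a relative of resistin made by macrophages and fat tissue, differed by -0.15 (adjusted p = 0.428). In the alternative complement pathway, in which Cfd acts, 3 of 7 genes could be tested. Cfb, the substrate of Cfd, rose by 0.85 ± 0.22 (adjusted p = 0.0133), as did the inhibitor Cd55 (0.89 ± 0.13, adjusted p = 0.000704), and the inhibitor Cd59a fell by 0.59 ± 0.13 (adjusted p = 0.00571). Fibro-adipogenic progenitors, the cells from which muscle fat develops, were read by 10 tested markers. Lum (1.0 ± 0.13), Pi16 (0.91 ± 0.18) and the broadly expressed integrin Itgb1 (0.82 ± 0.11) rose and 0 fell. Over all genes 22.2% rose and 21.6% fell. The defining receptor of these progenitors, Pdgfra, differed by 0.05 (adjusted p = 0.793).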

How the data were processed

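mRNA of 3 denervated and 3 control GA muscles was amplified into biotinylated cRNA, hybridized to Illumina mouse bead arrays and read in GenomeStudio by the authors. The deposited table gives, per the file headers, the signal intensity of each probe averaged over beads, its standard error, the bead count (median of 39 to 40 per array) and a detection p-value, the rank of the probe against negative control beads. The deposited intensity values were neither background-subtracted nor normalized. A deposited table of the authors' quantile-normalized intensity values served as an alternative. Precision is limited by the number of arrays. Other columns of sample values: 0.

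For the fit, neqc of limma 3.58.1 (R 4.3.3) removed background by a normal-exponential model, added an offset of 16, applied quantile normalization and took log2. Denervated was compared with control by lmFit and eBayes over all 12546 probes above background on at least 3 arrays, with p-values adjusted after Benjamini and Hochberg and called under 0.05, and the procedure was tested on simulated data. Adjusted p-values are from this fit unless stated, and fold changes are denervated minus control. They understate the change of dim probes. A gene was represented by its tested probe with the highest mean. A gene that stayed below background throughout a group is given as "at least", against the higher of its own value and the lowest value above background on each array. The platform annotation named 23978 probes (1 gene each), and 1719 had no gene. Of these names 23962 were matched by Entrez number to RefSeq, which changed 0 symbols. The ceiling of 60000 was chosen after the array maxima were known.

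The members and the 15 other gene lists (162 genes) were chosen with earlier results of these data known. Named were all members, up to 4 members of each list with the largest changes past the threshold, all tested carbonic anhydrases and fatty acid-binding proteins, and the 5 genes most like Adipoq and Car3. Others were named after their values were seen. Alternatives in background correction, offset, scaling, filter, test, block and probe choice and fits without 1 array were run. Replicate numbers are shared by the groups without a label tying them to a mouse, and were not used for pairing.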

Additional observations from a re-analysis of the deposited data

How the results depend on the processing

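The number of genes called was 3829 and stayed within 1.5 times that number in each alternative, from 3003 to 3436 with 1 array left out and from 3007 to 4158 otherwise. With scaling by the median only, the middle gene stood at 0.20 and 73.2% of the calls were rises, beside 50.6%, and with that median taken over probes detected on every array, a scaling added after the data were seen, 43.9%. Of the members, 3 were called as reported and 3 to 5 with 1 array left out. The number was 5 without background correction, with an offset of 50, with the authors' quantile-normalized values, with detection p under 0.01 on at least 3 arrays or under 0.05 on all 6, and with the added scaling; Cidec and Pparg, both lower, were the additional calls. It was 4 with trend and robust moderation, with Pparg added, and 2 with the equal-variance test per probe, without Lep. Over 18 alternatives Car3 (0.99 to 1.38) and Lpl (-1.36 to -1.08) were called in 18, Lep (-1.47 to -0.77) in 17, Pparg (-0.85 to -0.33) in 9, Cidec (-1.37 to -0.71) in 8 and Adipoq (-0.98 to -0.24) in 0, with the same sign in each. The equal-variance test per probe also lost the calls of G0s2, Agpat2, Dgat2, Gpihbp1, Dgat1, Car13, Cfb, Tpm3, Tnnt1, Egfl7, Emcn, Tie1, Robo4 and Esam, and scaling by the median only lost those of Agpat2, Me1, Gpihbp1, Car11, Cd59a, Casq2 and all 7 endothelial markers.

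Whether the replicate numbers pair the samples was not settled. The deviations of arrays with the same number correlated at -0.005, 0.181 and 0.161, and denervated replicate 1 correlated best with control replicate 2 (0.124). A fit with a replicate block called 3794 genes and 3 members. Without the filter on dim probes Fabp4 differed by 0.11 (adjusted p = 0.499) and Retn by -0.08 (adjusted p = 0.799), both from probes at background, which limits what these arrays show of them.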
